A study of Mus musculus with 6 samples.

Results

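The kinesins of mouse airway basal cells were described from 6 RNA-seq libraries. Members were all genes whose symbol reads Kif, Kifc or Klc followed by a number, which gave 48 of the 56748 genes in the table. This rule uses no expression value, but members and gene lists were chosen with earlier results of these data known. The members were sorted by known role into 14 mitotic kinesins, 15 cargo kinesins, 4 kinesin light chains, 6 ciliary kinesins and 9 others. Basal cells, the stem cells at the base of the airway lining, had been isolated from the trachea of wild-type mice and kept in culture for 4 days. In 3 libraries the cells had been given UK-5099, which blocks the mitochondrial pyruvate carrier. In the other 3 they had been given a mix of Y-27632 (a ROCK inhibitor), A8301 (which blocks type I receptors of TGF-beta) and DMH-1 (which blocks those of BMP), called the 3 inhibitors below. There was no untreated group, so a difference does not tell which condition moved. Whether Y-27632 was also given with UK-5099, and the age of the mice, are not in the labels. Nor do the labels tie replicates to separate mice or dishes, so the p-values reflect the scatter of these libraries only, which may be technical.

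Kinesins are motors that hydrolyse ATP to move along microtubules or to take their ends apart. In a dividing cell a specialised set builds the spindle, moves chromosomes and closes the cleavage furrow, and most of its genes are transcribed late in the cell cycle. Cargo kinesins work in dividing and resting cells alike, where they carry mitochondria, endosomes, lysosomes and other vesicles, many of them through adaptors or through kinesin light chains.

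With UK-5099, each of the 13 mitotic kinesins that could be tested was higher, by a median log2 fold change of 0.93 (1.91-fold), and none was lower (27.2% of all genes tested were higher). This count depends on the sorting: Kif2a, which serves both spindle poles and resting cells, was placed among the others and was lower (log2 fold change -0.36). Cargo kinesins and light chains moved both ways: of 17 tested, 6 were higher and 8 lower, with a median log2 fold change of -0.16. Values are normalized counts, which are the authors' read counts after division by the size factor of the library. Genes averaging 10 or more normalized counts were tested with limma on log2(normalized count + 1), a scale that understates the change of low genes, and were called at a Benjamini-Hochberg adjusted p under 0.05 over the 15704 genes tested. A positive log2 fold change means higher with UK-5099, and its error is the standard error of the fit. Of the 48 members, 38 were tested, 22 were called higher and 12 lower. Among all genes tested 27.2% were called higher, 26.6% lower and 53.8% in either direction, so a call by itself does not set a gene apart here. The libraries of the groups did not overlap for 35 of the 38 members, against 60.8% of all genes tested. Of the called genes 50.6% were higher, but 39.1% after each library was centred on its median gene, which took the median log2 fold change of all genes from -0.0005 to -0.0892, and 54.5% after upper-quartile rescaling.

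The recovered depth ran from 19909589 to 27037795 reads per library. Basal cell markers were present as labelled: Krt5 had 37170 to 126900 and Trp63 3143 to 5655 normalized counts in the 6 libraries. Over all genes tested, 27.2% were higher and 26.6% lower, against which each marker count below is to be read. The 8 basal markers differed between the groups as well, with 6 of 8 higher and 1 lower with UK-5099. Their sums were 259800 to 281000 against 119700 to 131700, mostly Krt5, Krt14 and Krt15. Ngfr was the lower one (65.85 against 304 normalized counts, log2 fold change -2.20), and Krt15 was not called (-0.07). Of 8 secretory markers 5 were tested and all 5 were lower (sums 7176 to 8958 against 47380 to 50070, mostly Cbr2). Of 12 multiciliated markers 4 were tested, with Rsph1 and Cfap43 called higher and none lower (sums 216.4 to 238.7 against 154.6 to 209.2, with Dynlrb2 at 0 in all 6 libraries). Of 12 neuroendocrine and neuronal markers 3 were tested, with Tubb3 and Map2 higher and Insm1 lower (sums 1926 to 2110 against 406.6 to 436.7, mostly Tubb3), while Rbfox3 was at 0 and Chga reached at most 0.914. All 6 fibroblast markers lay under the filter (sums 6.5 to 14.6 against 8.25 to 10.1, with Col1a2, Col3a1 and Lum at 0). Of 6 leukocyte markers Cd74 alone was tested and was lower (sums 9.14 to 15.8 against 45.4 to 61.7). The part of these shifts in the kinesin differences was not tested. In bulk RNA, fewer cells of a type cannot be told apart from less of a transcript per cell.

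Promoter sequences bear on the mitotic set, because promoters of late cell cycle genes often carry the cell cycle genes homology region (CHR), TTTGAA, and CCAAT boxes. RefSeq windows of 300 bases, from 250 before to 50 after the annotated start (GRCm38.p6), were at hand for 36 of the 48 members. Both strands were searched for TTTGAA, for the palindromic CHR variant TTTAAA and for CCAAT, and matches of different motifs may overlap. TTTGAA was found for 11 of the 12 mitotic kinesins that were tested and had a window (91.7%), Kif18a being the exception. It was found for 0 of 11 tested cargo kinesins and light chains with a window. These counts leave out members under the count filter. Among those with a window, the cargo kinesin Kif1a held TTTGAA, as did Kif26b and Kif27. The mitotic Kif2b did not, nor did Kif12, Kif5c and Kif6. Over the complete RefSeq set 20.2% of 27025 genes (17.9% of 32851 windows) held it, and 14.7% of the tested genes with a window. CCAAT occurred for 8 of 12 mitotic members (66.7%) and 5 of 11 cargo members and light chains (45.5%). It occurred for 41.1% of all genes and 43.4% of the tested genes with a window. TTTAAA occurred for 2 of 12 (Kif14 and Kif2c), 0 of 11, 14.9% and 11.1% in the same order. A match is only a description of these letters in a window. Among the tested genes with a window, TTTGAA was present for 16.9% of those called higher, 12.2% of those called lower and 14.8% of those not called.

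The 11 mitotic matches are printed because their place and strand vary while the letters are shared. Each line gives 30 bases on the strand of the gene, 5′ to 3′, around the match nearest to the start, with the match in capitals (TTCAAA is TTTGAA read on the opposite strand).
Kif11: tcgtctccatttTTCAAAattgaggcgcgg
Kif14: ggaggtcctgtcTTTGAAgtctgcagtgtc
Kif15: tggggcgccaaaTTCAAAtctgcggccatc
Kif18b: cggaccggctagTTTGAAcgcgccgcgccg
Kif20b: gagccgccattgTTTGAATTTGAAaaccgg
Kif22: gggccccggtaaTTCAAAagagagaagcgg
Kif23: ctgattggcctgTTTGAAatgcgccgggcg
Kif2c: ccaggctgctctTTCAAAcctgagtaatgc
Kif4: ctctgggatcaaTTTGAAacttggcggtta
Kifc1: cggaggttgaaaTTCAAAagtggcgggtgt
Kifc5b: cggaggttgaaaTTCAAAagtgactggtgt
Of the 11 nearest matches, 5 came before the start and 6 after it. By strand, 5 read on that of the gene and 6 on the other. In 9 of the 11 the match lay within 50 bases of the start. The windows end 50 bases after the start, so this was given in advance for the 6 matches after it. Counted from the start, where -1 is the last base before it, the match of Kif11 (chr19:37376351-37376380, plus strand) spans -19 to -14, as does that of Kif15 (chr9:122951050-122951079, plus strand). The match of Kif22 (chr7:127042420-127042449, minus strand) spans -17 to -12. Kif14 (chr1:136467608-136467637, plus strand) and Kif2c (chr4:117178858-117178887, minus strand) had theirs farther out, from -228 and -103. Kif20b (chr19:34922353-34922382, plus strand) held 2 matches side by side. The stretches of Kifc1 and Kifc5b are near copies of each other.

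Longer stretches are shown for the mitotic kinesin with the smallest adjusted p and for the 2 cargo set members with the smallest adjusted p that had a window, as far as they lie outside annotated exons (GENCODE M21). Kif4, next among the mitotic kinesins, is left out because its upstream bases lie in annotated exons. Capitals mark the CHR, its variant and the CCAAT box on either strand. Kif11 is shown over chr19:37376132-37376381, plus strand, Klc4 over chr17:46646081-46646228, minus strand and Kif16b over chr2:142901532-142901714, minus strand, each on the strand of its gene.
Kif11: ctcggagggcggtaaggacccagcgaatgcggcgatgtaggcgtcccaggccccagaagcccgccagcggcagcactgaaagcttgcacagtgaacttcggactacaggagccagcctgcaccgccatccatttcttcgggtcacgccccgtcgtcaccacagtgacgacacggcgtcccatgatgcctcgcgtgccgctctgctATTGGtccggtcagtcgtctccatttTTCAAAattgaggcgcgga
Klc4: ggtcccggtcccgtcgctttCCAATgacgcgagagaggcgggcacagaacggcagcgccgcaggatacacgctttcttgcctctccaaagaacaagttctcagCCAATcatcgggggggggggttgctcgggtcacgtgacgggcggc
Kif16b: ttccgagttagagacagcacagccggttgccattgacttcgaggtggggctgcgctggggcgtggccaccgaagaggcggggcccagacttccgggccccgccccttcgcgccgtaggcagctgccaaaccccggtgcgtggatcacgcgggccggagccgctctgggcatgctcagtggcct
Kif11 had a CCAAT box on the opposite strand (ATTGG) at -45 to -41, ahead of its CHR. Klc4 had CCAAT boxes at -128 to -124 and at -45 to -41 and no CHR, and Kif16b had none of the 3 motifs in its window.

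**Figure D1:**
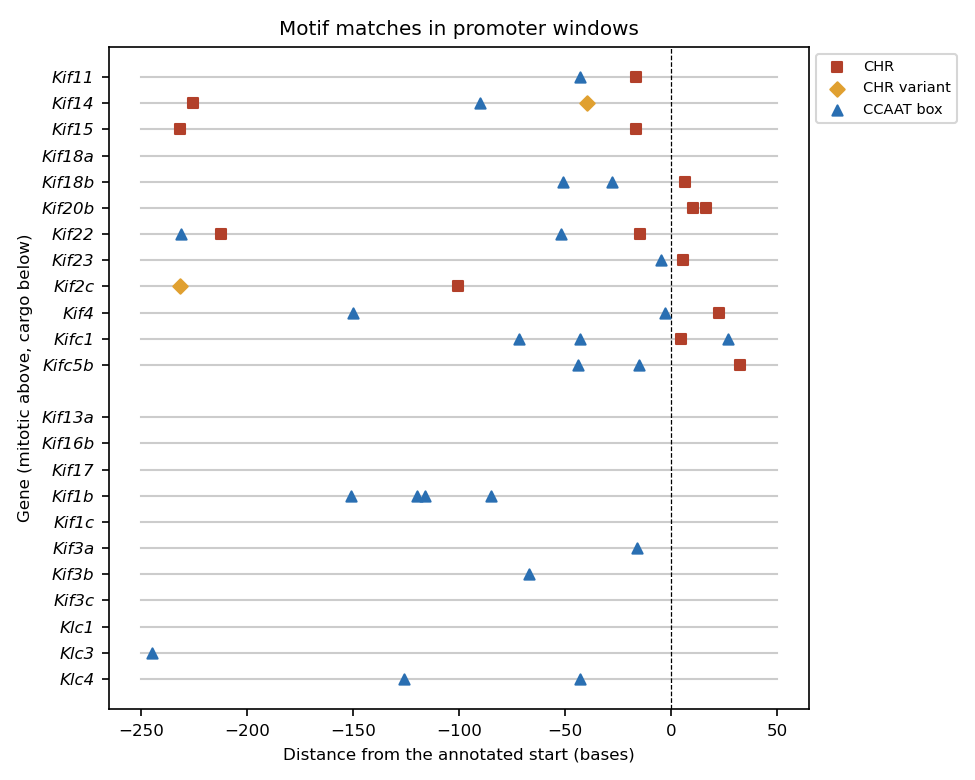
Motif matches by distance from the annotated start (bases) in the RefSeq windows of tested mitotic kinesins (above) and tested cargo kinesins and light chains (below). Squares (CHR, TTTGAA) occur for 11 of 12 mitotic kinesins and for 0 of 11 cargo members, while triangles (CCAAT) occur in both sets. Members under the count filter are not drawn, among them the cargo kinesin Kif1a, which has a CHR, and the mitotic Kif2b, which has none.

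Spindle assembly kinesins were higher with UK-5099 in every library. Kif11, the kinesin-5 that pushes the spindle poles apart, had 1640, 1498 and 1535 normalized counts in the UK-5099 libraries and 786.5, 785.5 and 768.3 in the 3-inhibitor libraries. The 2 sets of values stand well apart, at 1557 ± 73.7 against 780.1 ± 10.2 (SD, n = 3 libraries each), a log2 fold change of 1.00 ± 0.05 (limma adjusted p = 3.87e-08). Kif15, a kinesin-12 that can hold a bipolar spindle beside Kif11, had 864.6, 799 and 797.7 with UK-5099 and 404.1, 294.9 and 278.6 with the 3 inhibitors. The first of the 3-inhibitor libraries was the highest of its group, yet all 3 lay below every UK-5099 library. The log2 fold change of Kif15, 1.35 ± 0.12 (adjusted p = 2.17e-06), was the highest among the 13. Kifc1, the minus-end-directed kinesin-14 that focuses spindle poles, had 694.9, 717.4 and 682 against 371.1, 344 and 299.6, without overlap, and a log2 fold change of 1.05 ± 0.08 (adjusted p = 9.17e-07). Kifc5b, its near copy, had 321.1, 328.5 and 348.3 against 155.6, 161.7 and 131.5, also without overlap, and 1.15 ± 0.10 (adjusted p = 2.75e-06). These last values are uncertain one by one, because Kifc1 has 39.8% and Kifc5b 37.4% of its 50-base words in common with the other, and reads from such words can be split between them. Without Kifc5b, 12 of 12 tested mitotic kinesins were higher.

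Kinesins that act on chromosomes and microtubule ends were higher as well. Kif4, a chromokinesin that binds chromosome arms and shortens the central spindle, had 739.6, 783.3 and 820.9 normalized counts with UK-5099 and 410.2, 394.1 and 370.9 with the 3 inhibitors. The groups did not overlap, and the log2 fold change was 0.99 ± 0.07 (limma adjusted p = 3.24e-07). Kif4 is X-linked, and Xist, the RNA of the inactive X chromosome, was also higher (0.77) while 4 of 4 Y-linked genes were lower (-1.10 to -0.60). In addition, 15.1% of its exon bases are shared with Pdzd11 on the opposite strand (872.5 against 582.4 normalized counts, log2 fold change 0.58), and use of strand in counting is not given in the sources used here. What part either has in the Kif4 difference, or the antisense genes named below in theirs, was not tested. Xist and the Y-linked genes differ between the groups as a whole, and what lies behind that may bear on any member, which was not tested either. Kif22, the other chromokinesin, which pushes chromosomes away from the poles, had 537.5, 520.6 and 572.4 against 329.8, 308.3 and 324.3. Every UK-5099 value was above every 3-inhibitor value, with a log2 fold change of 0.76 ± 0.07 (adjusted p = 4e-06).

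Kif18a and Kif18b, kinesin-8 motors that walk to the plus ends of microtubules and restrain their growth, were called higher. Kif18a had 416.6, 330.4 and 369 normalized counts with UK-5099 and 248.4, 207.3 and 220.2 with the 3 inhibitors, which do not overlap, and a log2 fold change of 0.72 ± 0.11 (limma adjusted p = 0.000137). Kif18b had 482.6, 404.6 and 475 against 218.5, 227.9 and 232, farther apart, and 1.00 ± 0.09 (adjusted p = 2.5e-06). Kif2c, the kinesin-13 that takes apart faulty attachments at the centromere, had 592.3, 543.8 and 494.5 against 299.9, 278.8 and 280.5. Its groups were separate too, with a log2 fold change of 0.92 ± 0.08 (adjusted p = 2.73e-06). Kif2b, a related kinetochore depolymerase, was listed at 0 in all 6 libraries and was not tested.

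Among the kinesins of the central spindle and cytokinesis, differences were more uneven. Kif20a, which brings the chromosomal passenger complex to the midzone, had 769.1, 675.6 and 638.2 normalized counts with UK-5099 and 342.2, 370.9 and 376.4 with the 3 inhibitors. The groups did not overlap and the log2 fold change was 0.93 ± 0.08 (limma adjusted p = 2.06e-06). Cdc23, which overlaps 29.3% of its exon bases on the other strand, was higher as well (0.52). Kif14, which binds Prc1 and citron kinase at the midbody, had 520.2, 491.9 and 459.2 against 303, 292.2 and 228.4. The third 3-inhibitor library was the lowest, and none reached the UK-5099 values (log2 fold change 0.84 ± 0.11, adjusted p = 4.32e-05). Kif20b, needed for late abscission, had 735.6, 767.5 and 781.9 against 517.4, 504.9 and 500.6, within narrow groups that stand apart, and 0.58 ± 0.06 (adjusted p = 6.2e-06). Kif23, which forms centralspindlin with Racgap1, had 1444, 1306 and 1342 against 1203, 1061 and 1058. The highest 3-inhibitor library came near the lowest UK-5099 library without reaching it, and the log2 fold change, 0.30 ± 0.06 (adjusted p = 0.00169), was the lowest of the 13. Racgap1 itself had 1670 ± 105 against 988.5 ± 31.3 (SD, n = 3 libraries each) and a log2 fold change of 0.75, and whether it differs from that of Kif23 was not tested.

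**Figure D2:**
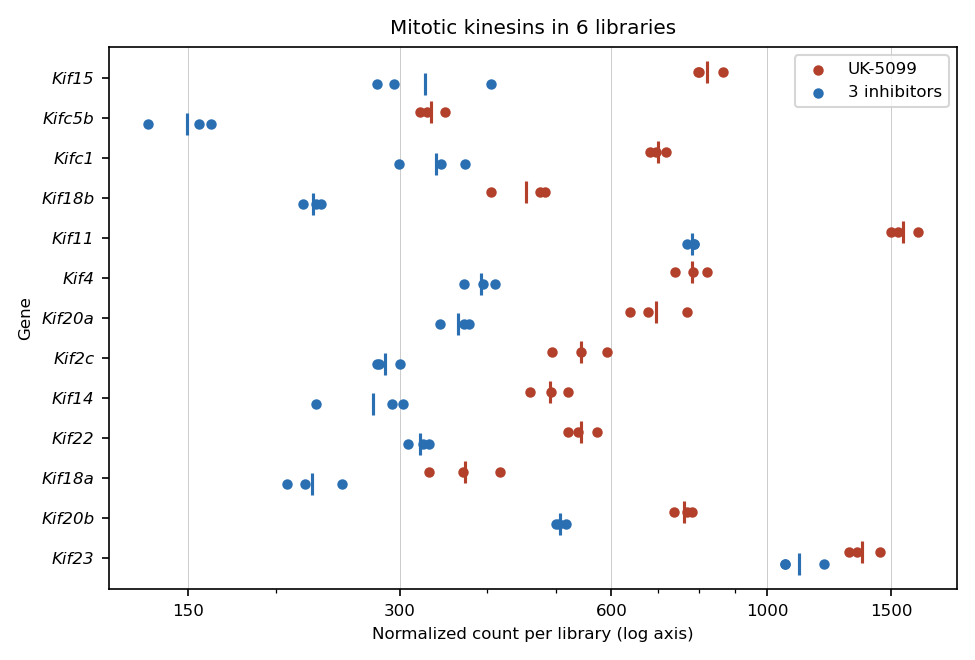
Normalized counts (log axis) of the 13 tested mitotic kinesins, ordered by log2 fold change, with 1 point per library and a vertical mark at the group mean. For each gene the 3 UK-5099 points lie to the right of the 3 points of the 3 inhibitors, and on this log axis the gap is narrowest for Kif23 (1306 against 1203).

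The mitotic set was thus higher by 1.23-fold (Kif23) to 2.55-fold (Kif15), 11 of 13 by at least 1.5-fold, and all 13 calls held in each of the 14 alternative analyses. Kif2a, sorted among the others though it also serves spindle poles, was lower. Proliferation markers moved in the direction of the mitotic set, with 7 of 8 higher and none lower (median log2 fold change 1.06). Over all genes tested, 27.2% were higher and 26.6% lower. Top2a, the decatenase of condensing chromosomes, had 6740 ± 422 normalized counts against 3091 ± 90.3 (SD, n = 3 libraries each), a log2 fold change of 1.12. Cdc20, the activator of the anaphase-promoting complex, stood at 1.12, Ccnb1 (cyclin B1) at 1.18 and Ccna2 (cyclin A2) at 1.01 on the same scale, while Mki67 stood at 0.58. Pcna, the replication clamp, was not called (0.04 ± 0.04, limma adjusted p = 0.491). The values of 12 of the 13 mitotic kinesins were above that of Mki67 and 2 (Kif15 and Kifc5b) above that of Top2a, an ordering given without a test. Whether more cells were in mitosis or each held more of these transcripts cannot be told apart.

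Of 20 partners of mitotic kinesins, 19 were higher and none lower (all genes tested: 27.2% and 26.6%). Their median log2 fold change was 0.78 (all genes tested: -0.0005). Tpx2, which brings Aurora A to the spindle, had 4298 ± 131 normalized counts against 1925 ± 102 (SD, n = 3 libraries each), a log2 fold change of 1.16 ± 0.05 (limma adjusted p = 6.86e-09). Hmmr, a spindle pole protein bound to microtubules, stood at 1.22 ± 0.06 (adjusted p = 2.55e-08). Tacc3 and Ckap5, which together stabilise kinetochore fibres, stood at 0.89 ± 0.05 and 0.72 ± 0.05. Cenpe, the kinetochore kinesin whose symbol falls outside the naming rule, had 1289, 1399 and 1321 against 831.8, 832.9 and 815.8, without overlap, with 0.69 ± 0.05 (adjusted p = 5.85e-07). The exception was Numa1, the pole protein that also serves in interphase nuclei, at 2967 ± 44.5 against 3085 ± 53.4 and -0.06 ± 0.04 (adjusted p = 0.253). TTTGAA was present in the windows of 11 of 17 of these partners (64.7%).

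Cargo kinesins gave no common direction. Among the 13 heavy chains tested, 4 were higher and 7 lower (all genes tested: 27.2% and 26.6%). Kif5b, the widely expressed heavy chain of kinesin-1, was the most abundant member per length, at 2030 and 1828 normalized counts per kb of exon with UK-5099 and the 3 inhibitors. In the libraries it had 15940, 16600 and 16060 normalized counts against 14840, 14660 and 14280. The groups were separate but close, with a log2 fold change of 0.15 ± 0.04 (limma adjusted p = 0.0068), and the call was lost when libraries were centred on their median gene (0.06, adjusted p = 0.198). Its neuronal relatives were scarce: Kif5a had 16.46 ± 1.72 against 18.92 ± 4.82 (log2 fold change -0.16 ± 0.30, not called, adjusted p = 0.681), and Kif5c reached at most 11.3 and was not tested. The kinesin-3 member Kif1c, a vesicle carrier of many tissues, was second per length, at 1257 and 1443 per kb. It had 9267, 8760 and 9410 normalized counts against 10780, 10300 and 10410. The UK-5099 values were all lower, with a log2 fold change of -0.20 ± 0.04 (adjusted p = 0.0018). Kif5b and Kif1c together made up 70.6% ± 0.0156 of the cargo heavy chain level per kb with UK-5099 and 68.8% ± 0.303 in the 3-inhibitor libraries (SD, n = 3 libraries each).

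Among the other kinesin-3 motors, Kif13b, Kif16b and Kif1b were lower and Kif13a higher. Kif13b, which carries phosphoinositide-bearing vesicles and the scaffold Dlg1, had 1226, 1138 and 1282 normalized counts with UK-5099 and 2198, 2169 and 2256 with the 3 inhibitors. Every UK-5099 library was far below every other, and the log2 fold change was -0.86 ± 0.05 (limma adjusted p = 1.19e-07). Kif13a, which moves recycling endosomes, went the other way, with 2253, 2094 and 2359 against 1632, 1575 and 1621. These did not overlap either, at 0.47 ± 0.05 (adjusted p = 1.18e-05). Kif16b, an early endosome motor with a lipid-binding PX domain, had 1219, 1288 and 1300 against 1865, 1859 and 1782, all lower with UK-5099, at -0.53 ± 0.05 (adjusted p = 2.45e-06). Kif1b, a carrier of mitochondria, lysosomes and synaptic vesicle precursors, had 4076, 4110 and 4517 against 5169, 4885 and 5044, again all lower, at -0.25 ± 0.05 (adjusted p = 0.000946). Kif1a, the neuronal synaptic vesicle motor, reached at most 7.11 and was not tested.

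Kinesin-2 motors, which drive intraflagellar transport and carry vesicles, differed by subunit. Kif3a had 1019, 1048 and 947.5 normalized counts with UK-5099 and 820.5, 857 and 868.8 with the 3 inhibitors. All UK-5099 values were higher, with a log2 fold change of 0.24 ± 0.06 (limma adjusted p = 0.00355). Kif3b, its heterodimer partner, had 1499, 1584 and 1403 against 1709, 1632 and 1632. The lower UK-5099 values gave -0.15 ± 0.05 (adjusted p = 0.0331), a call that was lost in 7 of the 14 alternatives: without UK-5099 replicate 1 (0.0768) or 3 (0.0703), without 3-inhibitor replicate 1 (0.121), 2 (0.0663) or 3 (0.0668), without the low filter (0.0533) and with upper-quartile rescaling (0.0873). Kif3c, the alternative partner of Kif3a, had 80.03 ± 12.3 against 91.29 ± 15.4 (log2 fold change -0.19 ± 0.18, not called, adjusted p = 0.4), with 35.3% of its exon bases shared with 1110002L01Rik on the opposite strand (0.04). Kifap3, the accessory subunit that links the motor to cargo, was not called (-0.05 ± 0.06, adjusted p = 0.501).

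Kif17, the homodimeric kinesin-2 of cilia and dendrites, had 45.72, 59.39 and 64.55 normalized counts with UK-5099 and 10.31, 8.936 and 7.308 with the 3 inhibitors. It was the member with the highest positive log2 fold change, 2.54 ± 0.27 (limma adjusted p = 9.17e-06), at a low level of 12.3 and 1.93 normalized counts per kb. Its exons share 1.62% of their bases with Sh2d5 on the same strand, a gene with 957.8 against 376.5 normalized counts and a log2 fold change of 1.34. The part of Sh2d5 reads in the Kif17 value was not tested.

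The minus-end-directed kinesin-14 motors of the cargo set were lower. Kifc3, which acts at adherens junctions and on apical vesicles, had 207.3, 208.8 and 208.3 normalized counts with UK-5099 and 353.5, 335.1 and 302.4 with the 3 inhibitors. Its groups did not overlap, and the log2 fold change was -0.66 ± 0.09 (limma adjusted p = 6.87e-05). Kifc2, best known from neurons, had 48.77, 41.76 and 36.54 against 70.09, 63.45 and 83.13, lower in all UK-5099 libraries, at -0.76 ± 0.19 (adjusted p = 0.0054).

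Kinesin light chains, which join kinesin-1 heavy chains to cargo adaptors, differed in composition. Klc1 had 3924, 3659 and 4046 normalized counts with UK-5099 and 2790, 2628 and 2713 with the 3 inhibitors. All UK-5099 values were higher, with a log2 fold change of 0.52 ± 0.05 (limma adjusted p = 3.34e-06). Klc4 had 586.2, 564.3 and 583.4 against 1131, 1114 and 1176. Here the UK-5099 libraries were about level with each other and all far lower, at -0.98 ± 0.05 (adjusted p = 5.37e-08), the smallest p among cargo heavy chains and light chains. Klc3, the light chain known from sperm tails, had 202.2, 207 and 230.2 against 153.6, 132.3 and 115.1, higher without overlap, at 0.68 ± 0.13 (adjusted p = 0.000763); 28.1% of its exon bases overlap Ercc2 on the opposite strand (-0.16, not called). Klc2 had 559.2 ± 46.1 against 541.9 ± 39.5 (SD, n = 3 libraries each) and was not called (0.04 ± 0.08, adjusted p = 0.672), with a sign that turned after median centring (-0.04) and without 3-inhibitor replicate 2 (-2.5e-05). Per kb of exon, Klc1 made up 67.5% ± 1.07 of the light chain level with UK-5099 and 50.2% ± 0.19 with the 3 inhibitors, and Klc4 17.2% ± 0.455 and 36.2% ± 1.09 (SD, n = 3 libraries each).

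**Figure D3:**
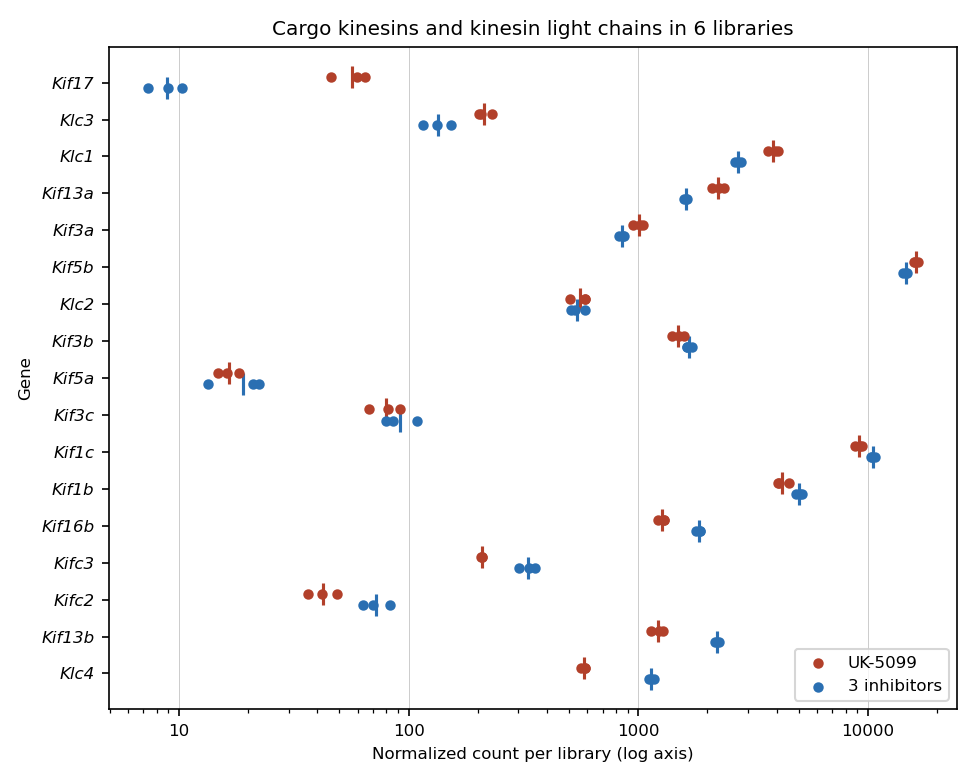
Normalized counts (log axis) of the 17 tested cargo kinesins and light chains, ordered by log2 fold change, with 1 point per library and a vertical mark at the group mean. Genes at the top are higher with UK-5099 and genes at the bottom lower, and the groups overlap for Klc2, Kif5a and Kif3c.

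The median of the 17 rests on single libraries and on the scaling. It was -0.16 with all 6 libraries, -0.08 without 3-inhibitor replicate 3, -0.11 without UK-5099 replicate 3 and -0.25 after median centring. The counts of 6 higher and 8 lower compare with 27.2% and 26.6% of all genes tested.

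Pairs of related kinesins that moved in opposite directions were set against each other within each library, as log2 ratios of normalized counts per kb of exon. The 4 pairs were chosen after their values had been seen, so the ratios are a description without a test. Kif13a to Kif13b stood at 1.56, 1.56 and 1.56 in the UK-5099 libraries and at 0.256, 0.224 and 0.209 in the 3-inhibitor libraries. Klc1 to Klc4 stood at 1.97, 1.92 and 2.02 against 0.527, 0.462 and 0.431. In both pairs the first gene was the more abundant per kb throughout, and its lead was wider with UK-5099. Kif3a to Kif3b stood at 0.096, 0.056 and 0.086 against -0.407, -0.277 and -0.258, so the order of this pair turned per kb. That turn depends on the exon lengths used (3586 bases for Kif3a and 5635 for Kif3b). In normalized counts Kif3b was ahead in each library. Kif21b to Kif21a stood at -3.97, -4.12 and -4.01 against -4.88, -4.97 and -4.91, with Kif21a ahead in each library.

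**Figure D4:**
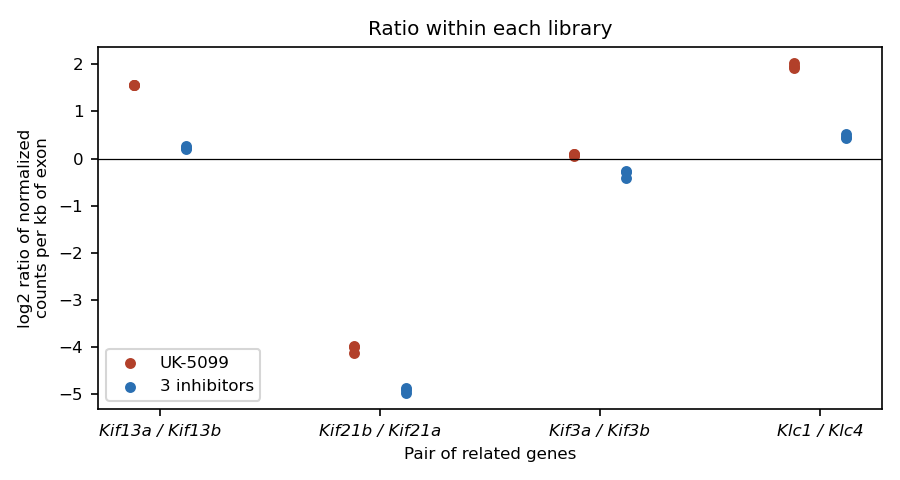
Log2 ratio of normalized counts per kb of exon for 4 pairs of related genes, with 1 point per library. The UK-5099 points lie above those of the 3 inhibitors for each pair, and on this per kb scale the Kif3a to Kif3b ratio crosses 0.

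Of 30 subunits, adaptors and small GTPases that serve cargo kinesins, 28 were tested, 1 was higher and 14 were lower, with a median log2 fold change of -0.16. Over all genes tested, 27.2% were higher and 26.6% lower. Trak2 and Trak1, which tie mitochondria to kinesin-1, were lower, with Trak2 at 1126 ± 39 normalized counts against 1894 ± 64.2 (SD, n = 3 libraries each; -0.75 ± 0.05, limma adjusted p = 2.17e-07) and Trak1 at -0.52 ± 0.05 (adjusted p = 4.07e-06). Rhot1 and Rhot2, the mitochondrial GTPases that anchor them, were not called (0.02 ± 0.05 and -0.11 ± 0.08). Hap1, the huntingtin-associated adaptor, stood at -0.93 ± 0.09 and Clstn1, a cargo that binds light chains, at -0.53 ± 0.05. Syne4, a nuclear envelope protein that binds kinesin-1, had 17.27, 19.49 and 15.83 against 92.77, 69.7 and 80.39, far lower with UK-5099 (-2.14 ± 0.21, adjusted p = 5.59e-06). The only one called higher was Ktn1, the kinesin receptor kinectin of the endoplasmic reticulum, at 0.41 ± 0.05 (adjusted p = 2.02e-05).

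Dynein and dynactin, the motor that runs toward minus ends and its activator, were mostly higher or not called. Of 19 genes 18 were tested, 10 were higher and 2 lower (all genes tested: 27.2% and 26.6%), with a median log2 fold change of 0.19. Dynlt3, a light chain, stood at 0.83 ± 0.05 and Dynll1 at 0.56 ± 0.04, while Nde1, a regulator with a role at the kinetochore, stood at 0.54 ± 0.05 (limma adjusted p = 6.6e-08, 7.38e-07 and 3.72e-06). Dync1h1, the heavy chain, had 10960 ± 358 normalized counts against 14380 ± 150 (SD, n = 3 libraries each) and was lower, at -0.39 ± 0.04, as was Dynll2 (-0.48 ± 0.05).

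Among ciliary kinesins, Kif19a had the lowest log2 fold change of all members. It trims the tips of motile cilia, and it had 8.128, 23.2 and 7.307 normalized counts with UK-5099 and 87.61, 108.1 and 106 with the 3 inhibitors. The second UK-5099 library was the highest of its group and still far below the others, and the log2 fold change was -3.05 ± 0.36 (limma adjusted p = 2.46e-05). Markers of multiciliated cells were scarce in both groups: Foxj1, their master regulator, had 0.339 against 3.23 normalized counts, and no tested marker was called lower. Their part in the Kif19a difference was not tested. Kif7, which sits at the cilium tip and tunes Hedgehog signalling, had 33.53, 36.19 and 29.23 against 17.52, 18.77 and 15.53, higher without overlap (0.89 ± 0.24, adjusted p = 0.00887). Kif24, a centriole kinesin that holds back ciliogenesis, had 173.7, 159.6 and 191.2 against 130.9, 129.6 and 108.7, also higher without overlap (0.50 ± 0.13, adjusted p = 0.00499). Kif9, a motor of motile cilia, had 70.04 ± 16.3 against 53.66 ± 0.993 (SD, n = 3 libraries each) and was not called (0.35 ± 0.19, adjusted p = 0.149), but was without UK-5099 replicate 3 (0.51, adjusted p = 0.0336). Kif27 and Kif6 reached at most 6.18 and 1.86 and were not tested.

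The remaining members split as well. Kif2a, a kinesin-13 depolymerase that serves both spindle poles and resting cells, had 978.4, 1016 and 1024 normalized counts with UK-5099 and 1367, 1238 and 1261 with the 3 inhibitors. It was lower in all UK-5099 libraries (-0.36 ± 0.05, limma adjusted p = 0.00017). Its relative Kif2c was higher, and Dimt1, which overlaps 19.2% of its exon bases on the opposite strand, was also higher (0.80). Kif21a, a kinesin-4 that slows microtubule growth at the cell cortex, had 3540, 3535 and 3828 against 4710, 4569 and 4374, lower without overlap (-0.32 ± 0.05, adjusted p = 0.000113). Kif21b, its relative, had 424.7, 381.4 and 448.2 against 301, 274.3 and 273.1, higher without overlap (0.56 ± 0.09, adjusted p = 0.000186). Kif26a, an atypical kinesin without motor activity, had 9.144, 9.28 and 6.09 against 21.65, 19.66 and 26.49, lower at a low level (-1.37 ± 0.32, adjusted p = 0.00356). Kif26b, Kif19b and Kifc5c-ps reached at most 14.2, 10.2 and 1.03 and lay under the filter. Kif19b had 10.16, 5.568 and 2.436 against 1.031, 0.8936 and 0.9135, without overlap, and was called only when the filter was lifted (adjusted p = 0.034). Kif12 and Kif28 were listed at 0 in all 6 libraries.

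**Figure D5:**
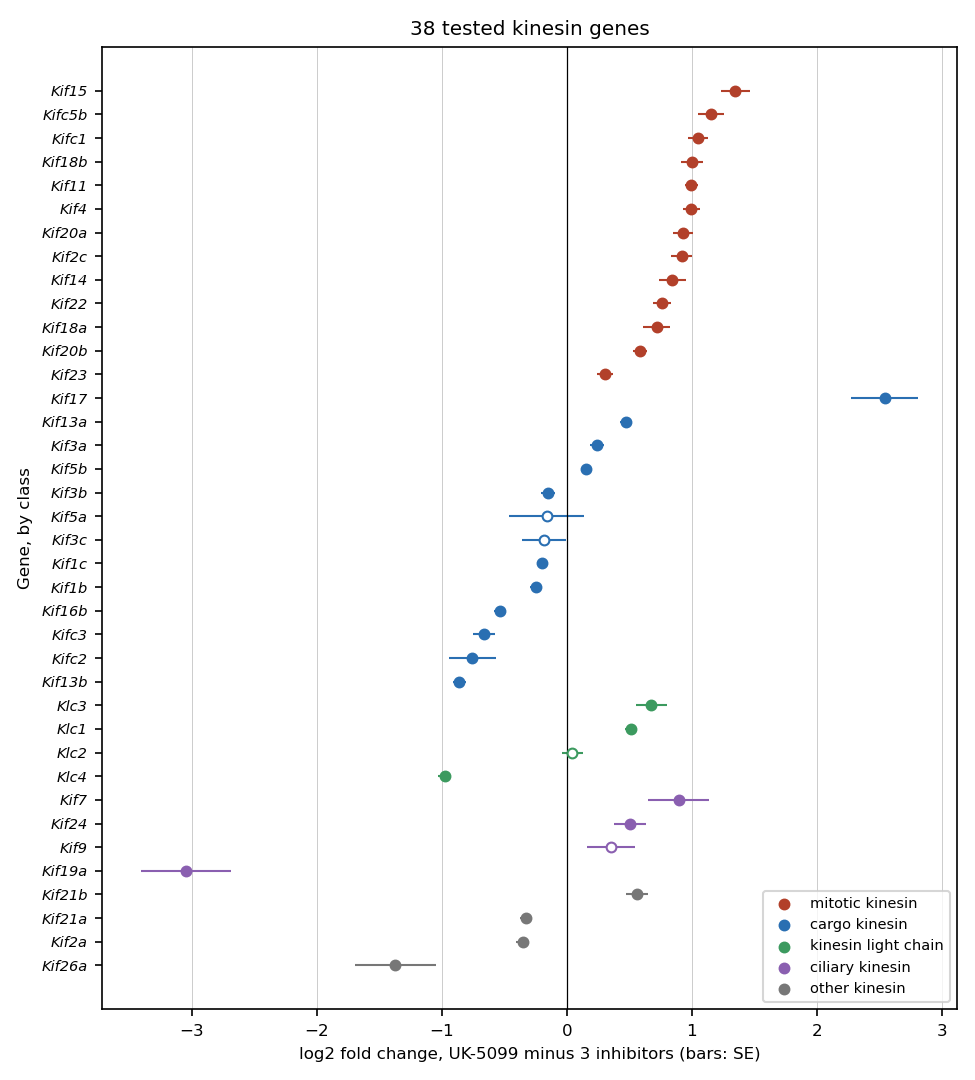
Log2 fold change (UK-5099 minus 3 inhibitors) of the 38 tested members by class, with bars for the standard error. Filled points passed the threshold and open points (4) did not: the mitotic points all lie right of 0, from 0.30 to 1.35, and the other classes lie on both sides.

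Per kb of exon, the mitotic kinesins made up 18.6% to 19.6% of the summed level of all 48 members in the UK-5099 libraries and 10.85% to 11.3% in the 3-inhibitor libraries (19.0% ± 0.52 against 11.1% ± 0.249, SD, n = 3 libraries each). Cargo heavy chains made up 54.9% ± 0.575 and 59.8% ± 0.325, and light chains 16.6% ± 0.462 and 16.7% ± 0.321. Ciliary kinesins made up 0.578% ± 0.066 and 0.722% ± 0.0466, and the others 8.92% ± 0.256 and 11.7% ± 0.221. The mitotic share was thus the one class share that was higher with UK-5099 without overlap, while light chain shares overlapped between the groups.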

How the data were processed

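RNA of 6 samples was sequenced by the submitters, with libraries made by the VAHTS Universal V8 kit per the labels. HISAT2 2.1.0, DESeq2 1.36.0 and GRCm39 appear in the submitters' processing notes without their roles. Not given in the sources used here: read counter, strand use and annotation. The deposited values are the log2 of counts that the authors had divided by size factors, a unit other than plain counts, with a text mark for 0.

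Values were raised back to normalized counts. The 57107 entries held 359 repeated identifiers, leaving 56748 genes. Between 99.988% and 99.992% of nonzero values per library were whole reads within 0.02, so reads were recovered by division. Genes with a mean of at least 10 were tested on log2(normalized count + 1) in R 4.3.3 with lmFit and eBayes (trend, two-sided, no covariates) of limma 3.58.1. The limma fit was tried on simulated counts, and the other steps were not. Exon lengths, overlaps and 50-base words came from GENCODE M21 on GRCm38 and promoters from RefSeq, so they need not match the authors' build.

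Values are given per library for each tested mitotic kinesin and each other called member. From each partner list, up to 4 called genes by smallest adjusted p are given by mean or log2 fold change. A few further list genes, the overlapping genes, the sex-linked genes and the paralogue pairs were chosen after their values were seen. Results of a few genes are not reported here. Members and lists were chosen with earlier results of these data known. Alternatives were other pseudocounts, filters and scalings, the replicate block, limma-voom on recovered reads and each library left out. Python 3.11.15, pandas 2.3.3, numpy 2.4.6 and matplotlib 3.10.9 were used.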

Additional observations from a re-analysis of the deposited data

How the results depend on the processing

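All 13 mitotic calls, and 29 of the 34 calls among members, were made in each of the 14 alternatives. Kif17, Kif7 and Kif26a kept theirs wherever they were tested, but a minimum mean of 50 left them out (cargo members higher: 5), and Kif3b and Kif5b lost theirs in some. Kif9 gained a call without UK-5099 replicate 3, and Kif19b without the low filter. The median of the mitotic kinesins was 0.84 after median centring and 0.86 to 0.96 with 1 library left out. The median of cargo kinesins and light chains was -0.14 after upper-quartile rescaling, -0.25 after median centring and -0.18 to -0.0752 with 1 library left out. Klc2 turned to -0.0441 after median centring and ran from -2.5e-05 to 0.11 with 1 library left out. The cause was not tested. Leaving Kifc5b out, an alternative chosen after seeing the data, gave 12 higher. Calls over all genes ran from 7351 to 9126 with 1 library left out. With the replicate block, 8423 genes were called against 8449, with 13 mitotic kinesins higher and 6 cargo members higher and 8 lower. Deviations of same-numbered libraries correlated at -0.02, 0.12 and -0.09 over 15704 genes, so the numbers were not taken to pair them. Of the 10 members under the filter, 7 were above 0 in some library, and without the filter 1 of these 7 was called.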
